A study of Mnemiopsis leidyi with 50 samples.

Results

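The 150 protein models described here are those whose CEL-Seq signal in single embryos of the ctenophore *Mnemiopsis leidyi* was most concentrated in the first hours of cleavage, from 1 to 3 hours post fertilization (hpf). They were drawn from 16548 models in the table, of which 15152 had a count in any embryo. CEL-Seq tags the RNA of each embryo with a barcode and sequences the 3′ ends. The reads counted for a model were divided by the embryo's total, and levels are given on that scale as CPM (counts scaled to a common total per embryo). Adults were spawned after darkness, zygotes were collected before first cleavage as time 0, and untreated embryos were taken singly up to 20 hpf. All embryos were whole, of one species and without any agent or genetic change. The series has 50 embryos at 26 time points. Up to 12 hpf each time is a single embryo, and from 13 hpf on each hour has 4.

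The members were selected on their measured levels. Embryos with fewer than 200000 counts were set aside, which removed the embryos at 0 and 5.5 hpf, 1 at 15 hpf and 1 at 19 hpf, and mean CPM was taken over the remaining 46 embryos in 8 windows (1–3, 4–6, 6.5–8, 8.5–10, 11–12, 13–14, 15–17 and 18–20 hpf). A model had to be highest at 1–3 hpf with a mean of at least 20 CPM, which 1669 models met, and the 150 with the largest share of their summed window means in that window were kept. The fall after 1–3 hpf is therefore a description of how the models were chosen, and it carries no test. CPM is a share of each embryo's counts. It does not give the amount of RNA per embryo, and in whole embryos fewer cells with a transcript and less of it per cell cannot be told apart.

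An animal egg is filled by the mother with RNA and protein that run the first divisions. As the embryo's own genome becomes active these maternal transcripts are broken down, some quickly and some over many hours, and a part of them is made again later by the embryo in particular cells. In ctenophores the early divisions follow a fixed pattern, and the embryo later forms comb rows, an apical organ and a pair of tentacles that carry adhesive cells called colloblasts. No role is given here to members that the sources used here do not annotate. One member is annotated: ML073417a is MlNR1, a nuclear receptor, that is, a transcription factor of the family that in other animals includes hormone receptors.

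Libraries and depth differed among embryos. All embryos from 1 to 12 hpf, with 1 of those at 13 hpf and 1 of those at 20 hpf (19 in all), had 3.21–4.54% of reads that were ambiguous between models, and the other 30 from 13 to 20 hpf had 0.740–2.04%. On that measure alone the 19 are named the first library group and the 30 the second. The embryo at 0 hpf, with 1.04%, was put in neither. Between times up to 12 hpf and later ones, hour and library group thus cannot be told apart, and the groups meet only at 13 and 20 hpf. Total counts were 278730 to 2079694 in the 46 embryos of the rule (median 868384), 138478 at 5.5 hpf and 1119 at 0 hpf.

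The name maternal was checked in the embryo at 0 hpf, which the rule did not use. The members held 24 of its 1119 counts, or 2.14% (exact 95% interval 1.38–3.17%, counting error only), against 7.25%, 5.78% and 6.21% at 1, 2 and 3 hpf and 0.675% at 12 hpf. The share before cleavage was thus above that at 12 hpf and below that of all 3 embryos of the selecting window, each by more than the counting error. The embryo at 0 hpf is not in their library group, so hour and library cannot be told apart here. Without the most abundant member, ML014110a, the share was 1.43% (0.819–2.31%) at 0 hpf against 4.44%, 3.92% and 4.26% at 1, 2 and 3 hpf. Counts were found there for 13 members, with 8 for ML014110a, 3 for ML040518a, 2 each for MlNR1 and ML079817a and 1 each for the other 9. In that embryo 1 count stood for 894 CPM and 80.5% of reads were not aligned, the highest share of any embryo. For the 137 members without a count, 0 allows up to 2681 CPM (3 counts). Only 2 members, ML014110a and ML104343a, averaged more than that at 1–3 hpf, and both had counts at 0 hpf, so none of the 137 did. Whether a given member was present in the zygote was therefore, for most, not detectable at this depth, and the members are called here by their window, not as maternal.

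The name confined to 1–3 hpf did not hold for most of them either. The share of the summed window means that lay at 1–3 hpf was 94.4% for the first model and 35.1% for the last, with a median of 39.8%. It exceeded 60% in 11 members and was under 40% in 77. Just inside the limit stood ML23956a, ML19123a and ML14562a, each with 35.1%, and just outside it ML07484a with 35.1%, ML02209a with 35.0% and ML47557a with 34.9%, so that no gap marks off the set. In 93 members none of the 43 later embryos of the rule reached the lowest of the 3 early ones, and in the other 57 at least 1 did, with 15 later embryos at most. The rule favoured such models and the same count was not made for all models, so nothing about the set is read from it.

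The members' summed level was 72528, 57754 and 62134 CPM at 1, 2 and 3 hpf. It was 39010 CPM at 4 hpf, 33778 at 4.5, 33632 at 5, 25415 at 6, 15577 at 6.5, 19024 at 7, 13218 at 7.5 and 12332 at 8 hpf. From 8.5 to 12 hpf it lay between 6755 and 10296 CPM. Over the embryos of the rule from 13 to 20 hpf the lowest sum was 5735 CPM and the highest 10173 CPM. The fall up to 12 hpf was measured entirely within the first library group. The 3 shallow embryos other than that at 0 hpf, which the rule did not use, gave a member share of 3.58% (3.48–3.68%) at 5.5 hpf, 0.683% (0.570–0.812%) at 15 hpf and 0.697% (0.653–0.742%) at 19 hpf. The 3 used embryos at 15 hpf had 0.785%, 0.689% and 0.705% and the 3 used at 19 hpf had 0.654%, 0.573% and 0.646%, so the late level of the members was also seen in embryos that took no part in choosing them.

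**Figure D1:**
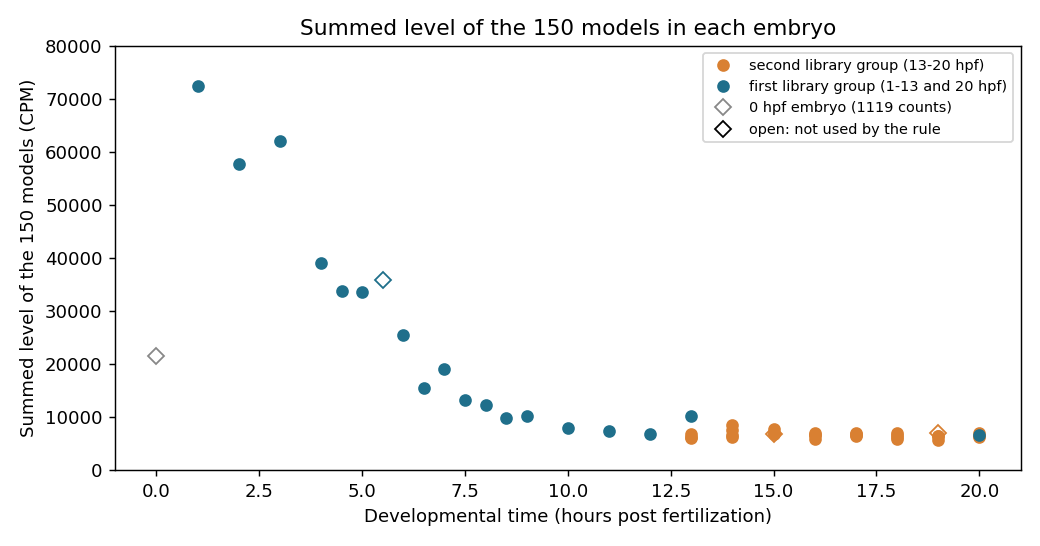
Summed level of the 150 models (CPM, vertical axis from 0) against developmental time (hours post fertilization), 1 point an embryo, coloured by library group, with open diamonds for the 4 embryos the rule did not use. The sum lay at 57754–72528 CPM at 1–3 hpf and at 6755–10296 CPM from 8.5 to 12 hpf, and the embryo at 0 hpf had 21448 CPM from 24 counts.

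The median member stood at 42.4% of its 1–3 hpf mean at 4–6 hpf, at 25.1% at 6.5–8 hpf, at 13.8% at 8.5–10 hpf and at 11.7% at 11–12 hpf. From 13 hpf on it was level, with 14.3% at 13–14 hpf, 13.7% at 15–17 hpf and 14.0% at 18–20 hpf. The step from 11–12 to 13–14 hpf crosses the library groups, so it cannot be read as a change with time alone. Of the 150 members, 91 at 4–6 hpf were under 50% of their early mean, 147 at 6.5–8 hpf, and all 150 from 8.5 hpf on. A mean of at least 10 CPM was found in 125 members at 4–6 hpf and in 91 at 18–20 hpf, windows that lie mostly in different library groups. Whether late transcripts had lasted from the early hours or were made anew was not tested. The window in which a member was lowest was 8.5–10 hpf for 43 members, 11–12 hpf for 36 and 18–20 hpf for 30. Lower means in every window than in the one before, up to 11–12 hpf, were seen in 62 members, and 37 members were higher at 6.5–8 than at 4–6 hpf.

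**Figure D2:**
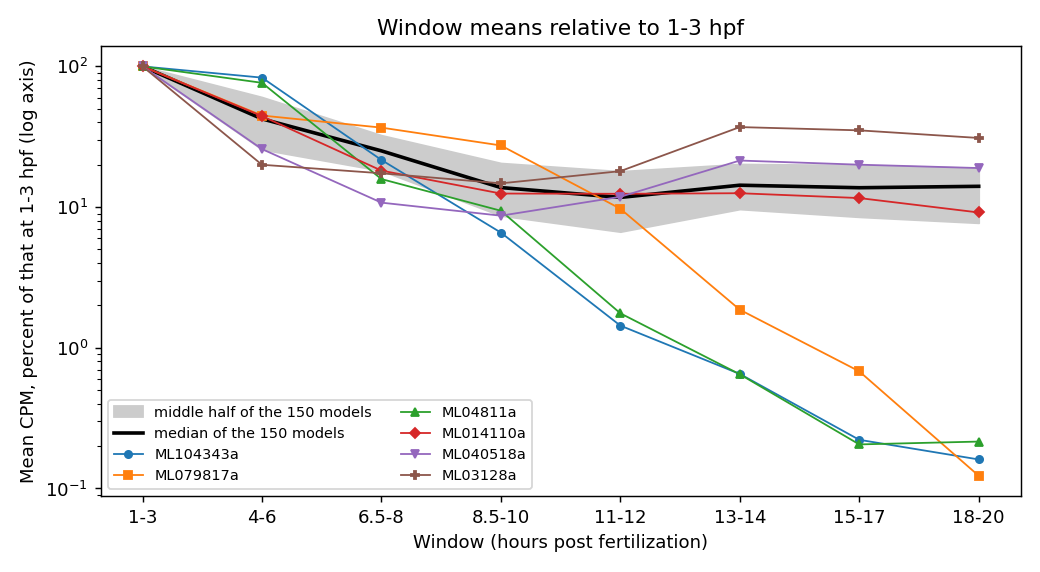
Mean CPM in each of the 8 windows as a percentage of that at 1–3 hpf (log axis), with the median (black) and the interquartile range (grey) of the 150 models and 6 single models. The median fell to 11.7% at 11–12 hpf, and ML104343a, ML079817a and ML04811a went on to under 1% at 18–20 hpf. ML03128a and ML040518a were higher from 13 hpf on than at 8.5–10 hpf. Comparisons of windows before and after 12 hpf cross the library groups.

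The 8 most abundant members held 57.6% of the set's summed 1–3 hpf level, and ML014110a alone held 34.4%. ML014110a had 28112, 18568 and 19505 CPM at 1, 2 and 3 hpf. It had 11895, 11636 and 10317 CPM at 4, 4.5 and 5 hpf, 5272 CPM at 6 hpf, and 4292, 5577, 2927 and 3240 CPM at 6.5, 7, 7.5 and 8 hpf. From 8.5 to 12 hpf it varied little, between 2664 and 2820 CPM, while the members without it summed to 7214 CPM at 8.5 hpf and 4091 CPM at 12 hpf. Its late embryos had 1560 CPM at the lowest, 2293 at the median and 4530 at the highest.

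ML104343a was the second most abundant and declined further than any other of the 8 except ML079817a. Its levels were 4801, 3792 and 4540 CPM at 1, 2 and 3 hpf and 4038, 2630, 3517 and 4385 CPM at 4, 4.5, 5 and 6 hpf, so the early and the 4–6 hpf embryos overlapped. At 6.5, 7, 7.5 and 8 hpf it had 1341, 575, 1670 and 200 CPM, and at 11 and 12 hpf 57.9 and 68.0 CPM. The window mean at 18–20 hpf was 7.04 CPM.

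ML079817a kept an intermediate level for longer. It had 2659, 1867 and 2948 CPM at 1, 2 and 3 hpf, 925, 635, 1011 and 1888 CPM at 4, 4.5, 5 and 6 hpf and 891, 1271, 865 and 633 CPM at 6.5, 7, 7.5 and 8 hpf. Its later window means were 683 CPM at 8.5–10 hpf, 242 at 11–12, 46.5 at 13–14, 16.9 at 15–17 and 3.07 at 18–20 hpf. It was thus still at 27.4% of its early mean in the window where the median member was at 13.8%, and near 0 where the median member was at 14.0%.

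The other abundant members had a low level in the late windows. The embryos from 13 hpf on are mostly of the second library group. For these members, and for ML014110a, ML104343a and ML079817a, late and early levels thus cannot be compared apart from the library. ML223532a had window means of 2519 CPM at 1–3 hpf, 255 at 11–12 hpf and 396 at 18–20 hpf. ML040518a had 1435, 1486 and 1833 CPM at 1, 2 and 3 hpf, and its window means were 410 CPM at 4–6 hpf, 138 at 8.5–10 hpf and 339 at 13–14 hpf. ML00402a had 1377 CPM at 1–3 hpf, 113 at 11–12 hpf and 190 at 18–20 hpf, and ML007428a had 1281, 139 and 209 CPM in the same windows. ML135620a, with a share of 66.5%, had 1961, 886 and 871 CPM at 1, 2 and 3 hpf and 29.0 CPM at 18–20 hpf.

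Members therefore differed in their level at the end. At 18–20 hpf 26 members were under 5% of their early mean and 6 under 1%, while 12 were at 25% or more. Against 8.5–10 hpf, the 18–20 hpf mean was at least 2-fold higher in 29 members and at least 2-fold lower in 38, a comparison that also crosses the library groups. ML04811a had 621 CPM at 1–3 hpf and 1.34 CPM at 18–20 hpf, whereas ML03128a, chosen after its values were seen, had 106 CPM at 1–3 hpf, 15.6 at 8.5–10 hpf, 39.2 at 13–14 hpf and 32.8 at 18–20 hpf.

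MlNR1 (ML073417a) stood at 67.3% of its early mean at 4–6 hpf, where the median member stood at 42.4%, and at 15.6% at 18–20 hpf. Its levels were 718, 1013 and 964 CPM at 1, 2 and 3 hpf, 698, 467, 613 and 641 CPM at 4, 4.5, 5 and 6 hpf and 266, 254, 362 and 223 CPM at 6.5, 7, 7.5 and 8 hpf. It reached 114 and 138 CPM at 11 and 12 hpf and then stayed between 74.7 and 230 CPM in the late embryos, with a median of 140. No later embryo of the rule reached its lowest early value. It was the only one of 5 transcription factors named in the study that was a member, or that had 20 CPM at 1–3 hpf at all. The study's supplementary sheets of InterProScan results (a search for protein domains and other sequence features) list 161 colloblast and 144 tentacle candidates, and its complete candidate lists were not used here. Of these, 0 and 0 were members, where the members' share of all models (0.906%) would give 1.46 and 1.31, so the absence says little. A mean of 20 CPM at 1–3 hpf was found in 8 colloblast candidates (4.97%) and 7 tentacle candidates (4.86%), against 22.3% of all models, with 2 of each highest there. The 4 candidate clusters and the 13 toxin-like models, too few to expect any, held 0 members.

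Of the 5 members with the largest shares, which averaged from 22.1 to 321 CPM at 1–3 hpf, 4 were at or near 0 in the embryos of the rule at 4–6 hpf. The other was lower there than at 1–3 hpf. ML03245a (94.4%) had 104, 79.7 and 72.9 CPM at 1, 2 and 3 hpf, 0 CPM at 4, 4.5 and 6 hpf and 2.95 CPM at 5 hpf. ML17569a (77.2%) had 27.8, 22.4 and 16.2 CPM at 1, 2 and 3 hpf and 0 CPM at 4, 4.5, 5 and 6 hpf. ML072812a (72.6%) had 46.9, 52.3 and 42.8 CPM at 1, 2 and 3 hpf and 0 CPM at those 4 times. ML03135a (72.4%) had 348, 271 and 344 CPM at 1, 2 and 3 hpf and 101, 87.0, 54.5 and 55.0 CPM at 4, 4.5, 5 and 6 hpf. At 5.5 and 7 hpf ML03135a had 173 and 49.2 CPM, against 10.8 and 16.2 CPM at 6.5 and 7.5 hpf. At the same 2 times ML072812a had 14.4 and 41.4 CPM, ML17569a 36.1 and 0 CPM and ML03245a 14.4 and 1.97 CPM. ML231814a (84.7%) is described below with the embryos in which it was found again.

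Within 1–3 hpf the rule used the mean and not the order, so the 3 embryos can be set against each other, with 1 embryo each and no test. Members were highest at 1, 2 and 3 hpf in near equal numbers (48, 49 and 53). At 3 hpf 6 members (4.00%) were at least 2-fold higher than at 1 hpf, against 6.02% of the 3690 models with at least 20 CPM at 1–3 hpf, and 3 members (2.00%) were at least 2-fold lower, against 3.96%. The median ratio was 0.959 in members and 0.980 in those models. Both shares are near the background, so nothing particular to the members is read from them.

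The members with the largest and smallest ratios of 3 to 1 hpf were these. ML10547a had 1.74, 7.47 and 84.5 CPM at 1, 2 and 3 hpf, followed by 30.7, 18.9 and 44.2 CPM at 4, 4.5 and 5 hpf, so that its place in the set rests on 1 embryo (90.2% of its 1–3 hpf signal). ML23181a had 26.9, 39.8 and 122 CPM and ML131140a 125, 97.1 and 345 CPM at 1, 2 and 3 hpf. The other way, ML20259a had 43.4, 17.4 and 10.4 CPM, ML135620a 1961, 886 and 871 CPM and ML040030a 74.7, 82.2 and 35.9 CPM. In 6 members 1 of the 3 embryos held over 60% of the early signal.

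The decline was not smooth. In the embryos at 5.5, 7 and 8 hpf many members stood above their level in the embryos just before and just after, a pattern noticed after the data were seen. The median member had 65.0 CPM at 5.5 hpf, against 45.7 at 5 and 33.2 at 6 hpf. It had 40.4 CPM at 7 hpf, against 23.2 at 6.5 and 19.5 at 7.5 hpf, and 25.01 CPM at 8 hpf, against 19.5 at 7.5 and 13.8 at 8.5 hpf. The median of the 3690 models with at least 20 CPM at 1–3 hpf was in none of the 3 embryos above both neighbours: it was 65.0 CPM at 5.5 hpf against 75.2 and 73.4, 59.1 CPM at 7 hpf against 61.6 and 61.7, and 50.0 CPM at 8 hpf against 61.7 and 48.9.

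**Figure D3:**
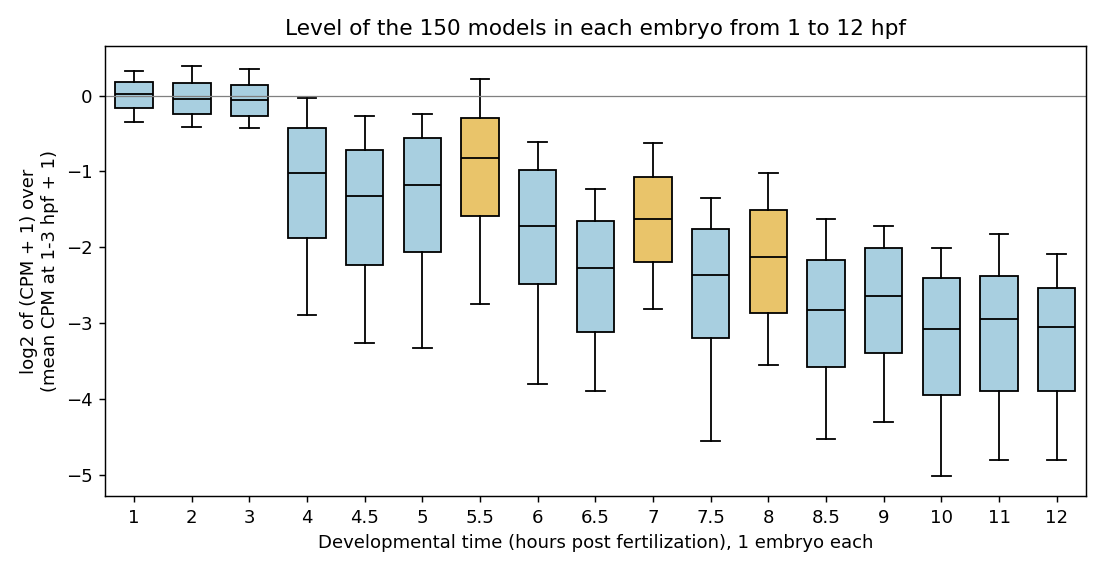
Level of the 150 models in each single embryo from 1 to 12 hpf, as log2 of (CPM + 1) over (mean CPM at 1–3 hpf + 1). Boxes give the median and the interquartile range, whiskers the 10th and 90th percentiles of the models, and the yellow boxes (5.5, 7 and 8 hpf) stand above the boxes on either side of them.

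At 5.5 hpf 88 of 150 members were above both neighbours, against 32.6% of the 3690 models, and 38 (25.3%) were at least 2-fold above both, against 6.04%. At 7 hpf 102 members were above both (36.1% of the models) and 43 (28.7%) at least 2-fold (5.12%). At 8 hpf the numbers were 77 (33.3%) and 32 (21.3%, against 4.61%). At least 2-fold below both neighbours were 14 members at 5.5 hpf (15.5% of the models), 6 at 7 hpf (7.24%) and 7 at 8 hpf (7.99%). These are counts over models in 1 embryo a time, with no replicate and no test.

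How the members were chosen bears on this. The embryos at 5 and 6 hpf entered the rule and the one at 5.5 hpf did not, so the rule favoured low values in its neighbours. When 150 models were chosen with the windows 4–6 and 6.5–8 hpf left unused, 116 of them were members, and 31, 34 and 27 models were at least 2-fold above both neighbours at 5.5, 7 and 8 hpf. The later neighbour of the embryo at 8 hpf lay in a window still in use, so low values there were still favoured. The 27 models at 8 hpf are therefore not free of the choice. Depth was low in these embryos: they had 138478 counts at 5.5 hpf, 507616 at 7 hpf and 519768 at 8 hpf, each fewer than both neighbours (678408 to 925981). The embryos at 2, 4 and 10 hpf also had fewer counts than both neighbours (401652, 554706 and 484496). In them 3, 0 and 4 members were at least 2-fold above both neighbours, against 0.596%, 0.623% and 1.73% of the 3690 models. The part of depth in the result was not tested. At least 10 counts lay behind 20 of the 38 members at 5.5 hpf, 29 of the 43 at 7 hpf and 22 of the 32 at 8 hpf.

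Some members returned in more than 1 of these embryos. Of the 38 at 5.5 hpf and the 43 at 7 hpf, 24 were shared, which is 63.2% of the first set and 55.8% of the second. Among the models with at least 20 CPM that were not members, 47 were shared, or 25.4% of 185 and 32.2% of 146. The shares called differed to begin with: at 7 hpf 28.7% of the members and 5.12% of the 3690 models were at least 2-fold above both neighbours. The shared percentages of members and other models therefore cannot be compared directly, and models outside the set returned as well. ML231814a had 202, 142 and 178 CPM at 1, 2 and 3 hpf and 9.01, 0, 0 and 0 CPM at 4, 4.5, 5 and 6 hpf. In the embryo at 5.5 hpf it had 72.2 CPM (10 counts). It then had 0, 45.3, 1.08, 23.1 and 11.3 CPM at 6.5, 7, 7.5, 8 and 8.5 hpf.

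Another 4 members with this course, chosen after their values were seen, show its range. ML02827a had 308, 324 and 305 CPM at 1, 2 and 3 hpf, 54.5, 224 and 33.2 CPM at 5, 5.5 and 6 hpf, and 31.3, 150, 29.2, 140 and 31.4 CPM at 6.5, 7, 7.5, 8 and 8.5 hpf. ML398336a had 188, 197 and 200 CPM at 1, 2 and 3 hpf, 11.8, 93.9 and 1.15 CPM at 5, 5.5 and 6 hpf, and 1.08, 39.4, 3.25, 44.3 and 5.02 CPM at 6.5, 7, 7.5, 8 and 8.5 hpf. It was higher again late, with a median of 54.1 CPM over the embryos from 13 to 20 hpf, most of them of the second library group. ML049018a had 129, 119 and 192 CPM at 1, 2 and 3 hpf, 17.7, 144 and 13.8 CPM at 5, 5.5 and 6 hpf, and 18.4, 98.5, 11.9, 69.3 and 12.5 CPM at 6.5, 7, 7.5, 8 and 8.5 hpf. ML08382a had 0, 28.9 and 0 CPM at 5, 5.5 and 6 hpf and 2.16, 63.0, 0, 44.3 and 0 CPM at 6.5, 7, 7.5, 8 and 8.5 hpf. In all 4 the embryos at 5.5, 7 and 8 hpf stood apart from those between them.

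**Figure D4:**
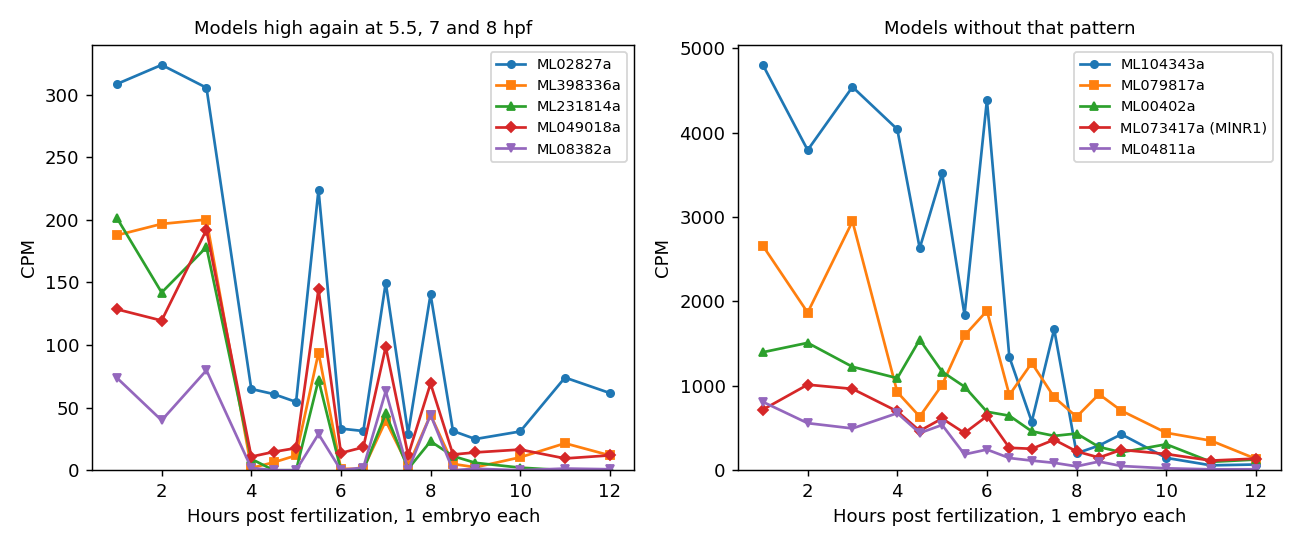
CPM of single models (vertical axes from 0) against hours post fertilization from 1 to 12 hpf, 1 embryo a time point. In the left panel the 5 models are high at 1–3, 5.5, 7 and 8 hpf and low between, as ML049018a with 144 CPM at 5.5 hpf and 13.8 CPM at 6 hpf, and in the right panel 5 models do not share this course, as ML104343a with 1841 CPM at 5.5 hpf and 4385 CPM at 6 hpf.

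For 5 members the embryos at 5 and 6 hpf both had 0 counts, so no ratio can be given, and at 5.5 hpf 1 count stood for 7.22 CPM. Besides ML231814a and ML08382a these were ML17569a with 36.1 CPM (5 counts), ML45132a with 57.8 CPM (8 counts) and ML072812a with 14.4 CPM (2 counts) at 5.5 hpf. ML17569a and ML45132a were at 5.5 hpf above their highest value at 1–3 hpf, from few counts. Other members took the opposite course. ML104343a had 3517, 1841 and 4385 CPM at 5, 5.5 and 6 hpf and 1341, 575, 1670, 200 and 292 CPM at 6.5, 7, 7.5, 8 and 8.5 hpf, below both neighbours in the same 3 embryos. MlNR1 had 441 CPM at 5.5 hpf, against 613 and 641 CPM at 5 and 6 hpf.

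The later windows were compared over embryos, and embryos of different times within a window stood as its replicates. The rule had used the same embryos, since each later window had to lie under that at 1–3 hpf and was part of the sum below the share. Counts of members called in these comparisons are therefore descriptions that are not independent of the choice, and nothing about the set is read from their difference to all models. At 6.5–8 hpf (4 embryos) against 4–6 hpf (4 embryos), edgeR's quasi-likelihood test on counts could be applied to 111 of 150 members, and the other 39 were under its filter on low counts. Of the 111, 26 fell and 0 rose with a Benjamini-Hochberg adjusted p under 0.05, while 3.33% of the 4539 models tested fell and 5.64% rose. At an unadjusted p under 0.05, 1 member rose, DESeq2 called 1 and limma voom 0. The median log2 fold change was -0.66 in the members tested and 0.00 in all models tested. A member can pass the filter through its higher, earlier group, so these counts do not speak for all 150.

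The rule had used these embryos, so the p-values and the lack of overlap of single members in the comparisons of windows are descriptions as well. Of the members that fell, ML04811a had the smallest p by edgeR. It had 145, 114, 87.7 and 46.2 CPM at 6.5, 7, 7.5 and 8 hpf, against 676, 440, 537 and 245 CPM at 4, 4.5, 5 and 6 hpf, a log2 fold change of -2.03 (SE 0.35, adjusted p = 0.0070 by edgeR). ML01794a had 96.1, 82.7, 86.6 and 73.1 CPM at 6.5–8 hpf, against 543, 373, 429 and 156 CPM at 4–6 hpf (-1.89, SE 0.33, adjusted p = 0.0070 by edgeR). In both the groups did not overlap. MlNR1 was among the 26 (-0.88, SE 0.21, adjusted p = 0.026 by edgeR), as were ML014110a (-1.05), ML104343a (-1.72), ML223532a (-1.29) and ML00402a (-0.97). ML079817a did not pass (-0.04, SE 0.30, adjusted p = 0.95 by edgeR).

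How many fell depended on single embryos. The number was 6 without the embryo at 4, at 4.5, at 5 or at 8 hpf, 14 without that at 7 hpf, 16 without that at 7.5 hpf and 42 without that at 6 hpf. Without both embryos at 7 and 8 hpf edgeR called 0 members (56 at an unadjusted p under 0.05), where 1 of all models tested fell, and ML04811a and ML01794a no longer passed (adjusted p = 0.067 and 0.085). Scaling by library size alone gave 43.

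At 8.5–12 hpf (5 embryos) against 6.5–8 hpf (4 embryos), edgeR was applied to 99 members, and 51 were under its filter. Of the 99, 7 fell and 0 rose, with 0.404% and 3.54% of 4948 models, and the same limit holds for these counts. No member rose at an unadjusted p under 0.05, by DESeq2 or by limma voom. The median log2 fold change was -0.73 in members and -0.01 in all models tested. ML141735a had 33.9, 36.8, 41.3, 30.95 and 20.5 CPM at 8.5, 9, 10, 11 and 12 hpf, against 84.2, 171, 74.7 and 112 CPM at 6.5, 7, 7.5 and 8 hpf (-1.65, SE 0.34, adjusted p = 0.017 by edgeR). ML199817a had 5.02, 1.19, 2.06, 4.04 and 4.74 CPM, against 23.8, 17.7, 18.4 and 21.2 CPM at the same times (-2.33, SE 0.49, adjusted p = 0.017 by edgeR). Neither overlapped between the groups.

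These 7 calls also rested on single embryos. Without the embryo at 6.5 hpf, or without that at 7 hpf, edgeR called 0 members (34 and 22 at an unadjusted p under 0.05). The count was 2 without the embryo at 10, at 11 or at 12 hpf and 12 without that at 8.5 hpf. DESeq2 called 18 and limma voom 1.

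**Figure D5:**
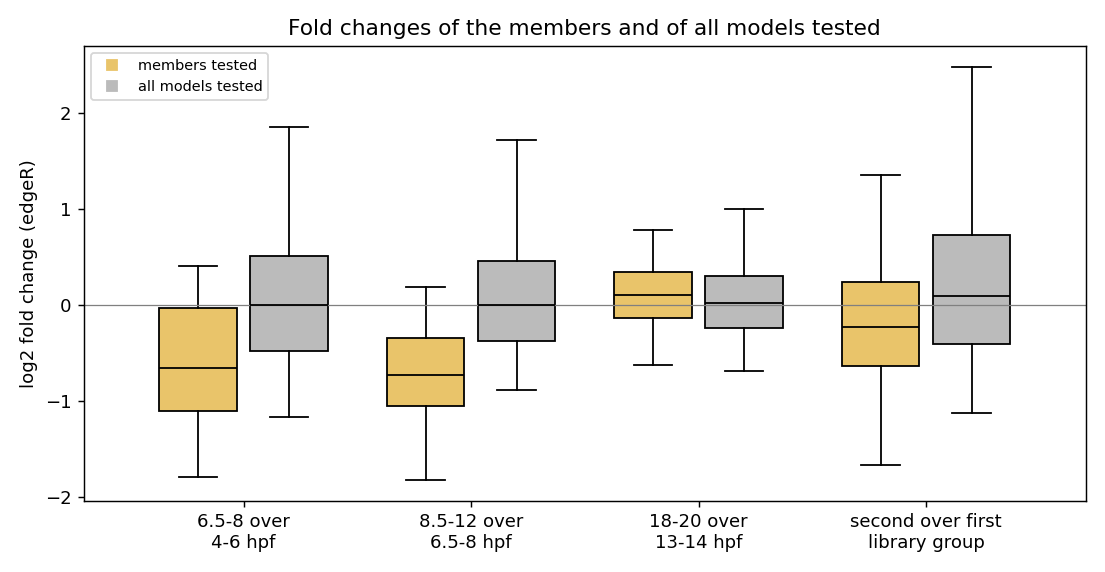
Log2 fold changes by edgeR in 4 comparisons, for the members tested (yellow) and all models tested (grey). Boxes give the median and the interquartile range and whiskers the 5th and 95th percentiles of the models. The members' medians were -0.66, -0.73, 0.11 and -0.23, and those of all models 0.00, -0.01, 0.02 and 0.09.

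At 18–20 hpf (10 embryos) against 13–14 hpf (7 embryos), within the second library group, edgeR was applied to 87 members, and 63 were under its filter. Of the 87, 6 rose and 0 fell, with 4.99% and 1.84% of 6507 models. Both windows had entered the rule, so this says nothing of the course of the whole set. At an unadjusted p under 0.05 edgeR had 4 members that fell, and DESeq2 and limma voom each called 2. The median log2 fold change was 0.11 in members and 0.02 in all models. ML091210a had 55.4 CPM at the lowest, 71.0 at the median and 89.5 at the highest at 18–20 hpf, against 20.3, 30.2 and 66.5 CPM at 13–14 hpf (0.98, SE 0.22, adjusted p = 0.0044 by edgeR). ML01794a, which had fallen between 4–6 and 6.5–8 hpf, had 79.7, 125 and 152 CPM at 18–20 hpf, against 35.6, 75.2 and 102 CPM at 13–14 hpf (0.78, SE 0.20, adjusted p = 0.017 by edgeR). The groups overlapped in both. The number that rose was 2 without embryo 2 at 13 hpf (numbered by accession order), 3 without embryo 3 at 13 hpf and 3 without embryo 2 at 14 hpf. The call of ML01794a was lost without embryo 4 at 13 hpf (adjusted p = 0.053 by edgeR).

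The library groups can be compared at 13 and 20 hpf, with 6 embryos of the second group and 2 of the first and the hour in the fit. Of 94 members tested by edgeR, 7 were lower and 1 was higher in the second group, against 2.91% and 2.57% of 6605 models. ML00022a had 22.4 CPM at the lowest, 58.1 at the median and 124 at the highest in the second group, against 321 and 143 CPM in the first (-2.12, SE 0.32, adjusted p = 0.0015 by edgeR). ML014110a had 1577, 2020 and 2181 CPM in the second group, against 4530 and 2729 CPM in the first (-1.08, SE 0.18, adjusted p = 0.0027 by edgeR). ML282532a was higher, with 26.5, 38.5 and 55.6 CPM in the second group, against 0 and 9.64 CPM in the first (3.04, SE 0.71, adjusted p = 0.022 by edgeR). None of these 3 overlapped. Also lower in the second group were ML104343a (log2 fold change -2.85, with overlap), ML00402a (-1.45), ML029612a (-1.75), ML07801a (-1.46) and ML063310a (-1.76). Without the first-group embryo at 13 hpf 2 members were lower and 2 higher, and without that at 20 hpf 3 were lower and 0 higher (edgeR; ML282532a then had an adjusted p of 0.16). The call of ML014110a was lost without the 13 hpf embryo (0.13). The levels of these 8 members after 12 hpf can thus not be compared with earlier ones apart from the library. The same holds for the members not called, since the first group had only 2 embryos here, and for the 56 members not tested.

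Neighbouring identifiers were few. The members carry 134 identifier prefixes, the part that names the stretch of the assembly, and 3 pairs had consecutive identifiers. ML135619a and ML135620a differed in course: ML135619a had 784, 905, 694 and 439 CPM at 4, 4.5, 5 and 6 hpf after 778, 812 and 563 CPM at 1, 2 and 3 hpf, while ML135620a had 326, 256, 295 and 211 CPM at those times after 1961, 886 and 871 CPM. In the other pairs ML020055a averaged 654 CPM and ML020056a 26.1 CPM at 1–3 hpf, and ML05496a averaged 206 CPM and ML05497a 389 CPM. Reads shared between such neighbours cannot be told from the counts.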

How the data were processed

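The deposited values are raw counts per protein model, which the authors made from CEL-Seq reads of single embryos with HTSeq 0.5.4p3 after base calling with CASAVA 1.8 and alignment with Bowtie2 2.1.0 (per the submitters' processing notes). Not given in the sources used here were the genome build, the counting options and the collapsing of molecular identifiers, so intervals cover counting error only. The 5 classes of reads not assigned to a model were kept out of totals, and 0 columns lacked a sample.

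CPM was the count over the embryo's total. Contrasts were tested with edgeR 4.0.16 (quasi-likelihood test, TMM factors, filterByExpr, Benjamini-Hochberg adjusted p under 0.05 over all models tested) in R 4.3.3, and the test was tested on simulated data. Shares have exact Clopper-Pearson 95% intervals. Also tried were DESeq2 1.42.0, limma voom 3.58.1, RLE factors, totals without factors, other limits of the rule and leaving out each embryo. Tables and figures were made with pandas 2.3.3, matplotlib 3.10.9, scipy 1.17.1 and numpy 2.4.6 in Python 3.11.15. Nothing in the sources says whether embryos of 1 time came from separate spawnings, so p-values measure the spread between these embryos. In the contrasts of windows, embryos of different times stood as replicates, so that spread also holds any change between those times. In the window contrasts within the first library group each time had a single embryo. Change with time and difference between embryos cannot be told apart there.

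Named models were the 8 with the highest 1–3 hpf mean, the 5 with the largest share, the 3 on either side of the limit, those the study names or lists, in each contrast the smallest p values (2 upward, 2 downward), the 3 highest and 3 lowest ratios of 3 to 1 hpf, the 3 highest at 5.5 hpf relative to 5 and 6 hpf (5 tied) and consecutive identifiers. Others were chosen after their values were seen. The members, lists and tests were chosen with earlier results of these data known. Names were sought in a RefSeq table of assembly GCA_048537945.1, which matched 0 of the 150 identifiers.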

Additional observations from a re-analysis of the deposited data

Results flagged for a closer look

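In 4 of 32 groups of 4 embryos examined (the summed level, the summed level without ML014110a, the median level of the members and the level of ML014110a, at each hour from 13 to 20 hpf), 1 embryo stood far from the other 3 by Dixon's criterion, which chance meets in about 1 group in 20. The first embryo at 13 hpf had a summed member level of 10173 CPM, against 6162, 6293 and 6763 CPM in the other 3. The same embryo had 4530 CPM of ML014110a. It was the one of the 4 in the first library group, and the part of the library group in this was not tested. The third embryo at 15 hpf had a median member level of 0.0 CPM from 18731 counts in all. The first embryo at 17 hpf had a median of 13.0 CPM, against values between 13.7 and 13.8 CPM in the other 3. In that embryo 1 count stood for 1.45 CPM, more than this gap, so no deviation is read from it.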

How the results depend on the processing

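The depth of 1 embryo a time up to 12 hpf limits every value there to that embryo. Of the 150 members, 108 to 141 were chosen again under the 8 other settings of the rule and 122 to 131 without an embryo at 1, 2 or 3 hpf. The member share with members chosen without one of these embryos was 1.97–2.06% at 0 hpf, 3.29–3.51% at 5.5 hpf (3.39% without the 2 hpf embryo), 0.598–0.705% at 15 hpf and 0.630–0.706% at 19 hpf. From 3 against 1 hpf, 12 members were higher and 22 lower by 1.5-fold, 2 and 1 by 3-fold, and 5 were lower with TMM factors. Among the 114 members of at least 50 CPM, 24, 27 and 20 were 2-fold above both neighbours at 5.5, 7 and 8 hpf (chosen after seeing the data).

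For 6.5–8 against 4–6 hpf, members that rose numbered 1 by DESeq2, 5 without the low-count filter and 4 in a fit of all embryos of the first library group, and members that fell 43 by library size alone and 0 without the embryos at 7 and 8 hpf (edgeR; 56 at an unadjusted p under 0.05). Leaving out 1 embryo gave 0 to 1 and 6 to 42. For 8.5–12 against 6.5–8 hpf, 18 fell by DESeq2, 1 by limma voom, 21 without the filter, 20 in the fit of all first-group embryos and 0 without 7 and 8 hpf (edgeR; 20 unadjusted), and leaving out 1 embryo gave 0 to 12, with 0 that rose. For 18–20 against 13–14 hpf, 3 rose by library size alone, and the number that fell was 2 by library size alone, DESeq2, limma voom or without the filter, 4 with both library groups and 1 with shallow embryos kept. Leaving out 1 embryo gave 2 to 6 that rose and 0 to 3 that fell. Between library groups, limma voom called 0 higher, and leaving out 1 embryo gave 0 to 2 higher and 2 to 7 lower. Direction was followed only for the members with the smallest p in each contrast (up to 2 upward and 2 downward). None of these changed direction, though some of their calls were lost. The cause of these differences was not tested. The labels give no replicate numbers, but embryo numbers form 4 consecutive runs over rising hours. With the run as a replicate block (chosen after seeing the data), 5 members rose and 0 fell at 18–20 hpf against 13–14 hpf (edgeR; 6 that fell at an unadjusted p under 0.05). Deviations within a run correlated at -0.13 to 0.18, and 1 of 4 runs correlated best with itself, so the runs were not taken as pairs.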
